A study of Mus musculus with 16 samples.

Results

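The comparison asked how the skeletal muscle transcriptome of mice given resveratrol on a high-fat diet (HFD) still differed from that of mice on a normal diet. Its members were chosen from the treatment labels alone: 8 of the 16 sequenced mice, with 4 in the control group (normal diet) and 4 in the HFD + RSV group (labelled HFD + reveratrol). All were male C57BL/6J mice (C57BL/6 in the strain label) that were 6 weeks old at the start. The HFD, with 60% fat, was given for 8 weeks, after which the HFD + RSV group received resveratrol (RSV), a plant polyphenol, by gavage for 6 weeks. The control diet was low in fat and rich in carbohydrate, so the groups differed in diet and in resveratrol together, and these cannot be told apart. Whether the control mice were given vehicle by gavage is not stated in the sources used here. The 4 untreated HFD mice entered the fit and are given as values beside the main comparison, with which they share the control mice. The muscle that was sampled is not given in the sources used here. A subset of the animals of each group received insulin shortly before tissue collection, and whether the sequenced mice were among them is not stated.

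Muscle takes up most of the glucose cleared after a meal, through insulin signalling and the transporter GLUT4. Cells that make fat from carbohydrate export citrate from mitochondria and convert it to acetyl-CoA, malonyl-CoA and then palmitate, which is elongated, desaturated and stored as triglyceride. Adipocytes use this route heavily, and it is known to fall when dietary fat replaces carbohydrate. Long noncoding RNAs (lncRNAs) are transcripts without a known protein product, and many of them lie inside or beside coding genes.

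Total counts ranged from 20962328 to 34021101 per control mouse and from 25875125 to 27447118 per HFD + RSV mouse. Gene counts of mice of the same group had Spearman correlations of 0.960 to 0.977, and those of mice of different groups 0.957 to 0.978. The tissue label was checked against its markers: the 10 skeletal muscle fibre genes had medians of at least 570 FPKM (fragments scaled to transcript length and library size), and Acta1, skeletal alpha-actin, stood at 10256 FPKM. The extraction text in the labels names retina, but no retina marker found in the table had a median above 0.489 FPKM, and Gnat1, rod transducin, had at most 2 counts in any of the 8 mice. In bulk muscle, fewer cells of a type and less RNA per cell cannot be told apart.

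In the gene table, 231 of 15097 tested genes (1.53%) differed between the HFD + RSV and control groups at an adjusted P below 0.05 in edgeR's quasi-likelihood test, of which 106 were higher (0.702%) and 125 lower (0.828%) in the HFD + RSV group. The changes were larger in the lower direction. Among the genes called, 61 fell (0.404% of those tested) and 27 rose (0.179%) by more than 1 on the log2 scale, and the median log2 fold change of the lower genes was -0.96 against 0.64 for the higher genes. The median over all tested genes was -0.01. In 227 of the 231 genes the levels of the groups, in CPM (counts scaled to library size), did not overlap, whereas 11.4% of all tested genes did not overlap. At an unadjusted P below 0.05, 9.66% of all tested genes were higher and 10.9% lower (20.6% in all), and 458 (3.03%) met that limit with a log2 change above 1. The count differed widely between fits: a fit of the 8 mice alone called 1 gene, a fit of all 16 mice called 1, and DESeq2 called 1284.

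Genes that make fatty acids were among the largest falls, with Fasn and Elovl6 the first and the second among the called genes and Thrsp, Slc25a1 and Acaca also among the 12 largest falls that met the naming rule. Of the 22 listed genes of fatty acid and triglyceride synthesis, 9 fell and none rose, beside 0.828% of all tested genes that fell. The median log2 fold change of the list was -1.31. The 9 genes cover citrate export, acetyl-CoA supply, chain synthesis, elongation and the last step of triglyceride synthesis.

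Fasn, fatty acid synthase (chr11:120805846-120824547, minus strand), showed the largest change among the called genes. It stood at 2381, 2679, 6414 and 452 CPM in the 4 control mice. In the HFD + RSV mice it stood at 42.5, 90.7, 97.1 and 45.5 CPM. The groups were separate, and the lowest control mouse was several times above the highest HFD + RSV mouse. The fitted change was 43.2-fold lower (log2 fold change -5.43 ± 0.72 SE, n = 4 and 4, edgeR adjusted P = 0.0125). The untreated HFD mice lay between 38.6 and 83.2 CPM, within or just below the HFD + RSV range. The log2 fold change of HFD + RSV against HFD was 0.16, with an unadjusted P of 0.801.

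The steps before and after Fasn fell as well. Slc25a1, the mitochondrial citrate carrier, fell from 44.8, 35.8, 79.1 and 25.3 CPM in the control mice to 4.26, 5.12, 8.48 and 2.80 CPM (log2 fold change -3.16 ± 0.47, edgeR adjusted P = 0.0213). Acaca, the carboxylase that makes malonyl-CoA, fell from 282, 276, 521 and 98.1 CPM to 29.8, 37.5, 43.5 and 25.9 CPM (log2 fold change -3.10 ± 0.41, edgeR adjusted P = 0.0124). Elovl6, which lengthens palmitate, fell from 82.9, 90.6, 226 and 10.7 CPM to 2.00, 4.69, 4.09 and 2.35 CPM (log2 fold change -4.97 ± 0.77, edgeR adjusted P = 0.0251). The groups did not overlap in any of these genes, with control mouse 3 highest and control mouse 4 lowest in each. Thrsp, a regulator of lipid synthesis in fat and liver, fell to 8.69 to 17.9 CPM from 27.5 to 271 CPM (log2 fold change -3.18 ± 0.56).

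The remaining called members were Acly (log2 fold change -2.55), which splits citrate to acetyl-CoA, Dgat2 (-1.97), which completes triglycerides, Elovl5 (-1.20), an elongase of polyunsaturated fatty acids, and Acacb (-0.55), the carboxylase isoform of mitochondria. Acacb, the form muscle uses to limit fatty acid oxidation, had the smallest change and a control range of 978 to 1408 CPM against 718 to 823 CPM. Scd1, the stearoyl-CoA desaturase, had a log2 fold change of -2.91 and no overlap between the groups, but its adjusted P was 0.0691. The transcription factors that govern the pathway, Srebf1 (-0.13) and Mlxipl (-0.02), did not pass the test, nor did Me1 (-0.06), malic enzyme, and Gpam (0.12), the first acyltransferase of glycerolipid synthesis.

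**Figure D1:**
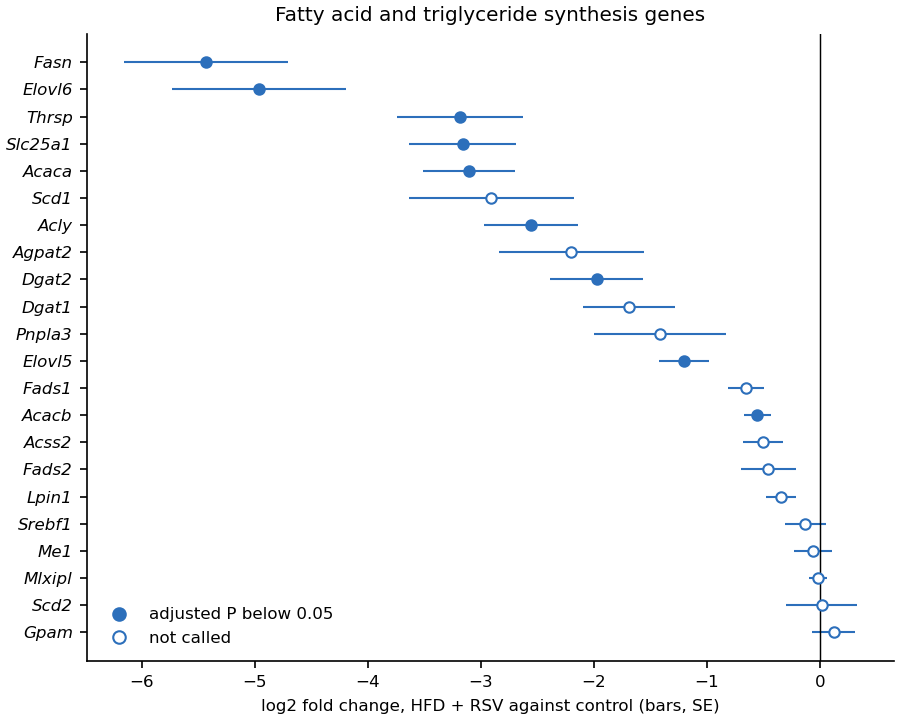
Log2 fold change of HFD + RSV against control (points, with SE bars) for the 22 genes of fatty acid and triglyceride synthesis. Filled points mark the 9 genes with an adjusted P below 0.05, all to the left of 0, while Srebf1 and Mlxipl sit beside 0.

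The promoters of Fasn, Slc25a1 and Elovl5 are shown because the first is the gene with the largest fall and the other two are the called lipogenic genes that carry an E-box. Each sequence runs from 250 bases before to 50 bases after the gene's start on its own strand, from RefSeq on GRCm38.p6: chr11:120824498-120824797 (minus), chr16:17928170-17928469 (minus) and chr9:77917115-77917414 (plus). Capitals mark CACGTG, the E-box read by basic helix-loop-helix factors, which is the same on both strands.
Fasn: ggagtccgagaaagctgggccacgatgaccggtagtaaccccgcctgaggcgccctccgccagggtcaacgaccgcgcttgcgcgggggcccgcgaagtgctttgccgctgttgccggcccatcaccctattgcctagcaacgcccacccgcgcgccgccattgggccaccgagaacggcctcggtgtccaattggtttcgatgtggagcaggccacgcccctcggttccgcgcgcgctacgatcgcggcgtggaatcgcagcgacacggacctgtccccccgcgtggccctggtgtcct
Slc25a1: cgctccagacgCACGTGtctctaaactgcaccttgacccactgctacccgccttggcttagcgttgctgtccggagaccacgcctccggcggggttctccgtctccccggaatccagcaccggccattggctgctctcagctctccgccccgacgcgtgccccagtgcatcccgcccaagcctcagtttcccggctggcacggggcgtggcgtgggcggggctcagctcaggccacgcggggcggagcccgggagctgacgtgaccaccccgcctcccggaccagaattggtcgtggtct
Elovl5: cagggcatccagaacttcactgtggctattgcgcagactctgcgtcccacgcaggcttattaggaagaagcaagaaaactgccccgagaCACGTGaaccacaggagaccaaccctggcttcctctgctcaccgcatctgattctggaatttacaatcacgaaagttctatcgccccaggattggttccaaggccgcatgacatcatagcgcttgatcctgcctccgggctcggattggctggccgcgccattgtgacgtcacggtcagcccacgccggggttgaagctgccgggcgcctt

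CACGTG began 239 bases before the start of Slc25a1 and 161 bases before that of Elovl5. Of the 17 listed lipogenic genes with a promoter in the table, 3 held it (Elovl5, Mlxipl and Slc25a1), beside 7.15% of all 32851 promoters. The sterol response element TCACNCCAC, searched on both strands, was found in 1 of the 17 (Mlxipl) and in 1.24% of all promoters. The Fasn window held neither, nor TTCNNNGAA (8.3% of all promoters), the PPAR response element (0.0396%) or TTATGNAA (3.38%), which says only that these letters are not in it.

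No white adipocyte marker passed the adjusted test by edgeR. Of the 12 white adipocyte markers, 11 had a negative log2 fold change. Of these, 6 had an unadjusted P below 0.05, beside 10.9% of all tested genes lower at that limit. Beside 1284 of all 15097 tested genes, DESeq2 called 4 of the 12 markers. Their summed level was 2024 to 6129 CPM in the control mice and 991 to 2120 CPM in the HFD + RSV mice, and none of the 12 markers was at 0 in these mice. Adipoq, the adipocyte hormone adiponectin, stood at 103, 69.3, 349 and 142 CPM in the control mice and at 31.3, 67.4, 110 and 16.4 CPM in the HFD + RSV mice, with overlap (log2 fold change -1.56, adjusted P = 0.275). Fabp4, the adipocyte fatty acid carrier, was lower by 1.73 on the log2 scale without overlap (adjusted P = 0.103), whereas Lep, leptin, had a log2 fold change of 0.68 with overlap.

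Of the 7 brown adipocyte markers, 1 fell, beside 0.828% of all tested genes, and 1 control mouse stood apart. Ucp1, the uncoupling protein of brown fat, was at 11.8, 39.6, 404 and 3.11 CPM in the control mice and at 0.488, 0.473, 8.74 and 0.222 CPM in the HFD + RSV mice (adjusted P = 0.0859). Cidea, a lipid droplet protein of brown fat, passed the test: its control values of 41.4, 69.5, 283 and 21.4 CPM lay above 2.04, 0.860, 13.2 and 2.49 CPM (log2 fold change -4.48 ± 0.98, edgeR adjusted P = 0.0498). It was called in 4 of 13 alternatives, and the call was lost without control mouse 2, 3 or 4 and without HFD + RSV mouse 1, 2 or 4. Control mouse 3 was highest in both genes and in Elovl3, a brown fat elongase. Of the 7 markers, 6 had a negative log2 fold change (median -3.41). Their summed level was 122 to 958 CPM in the control and 108 to 137 CPM in the HFD + RSV mice, where 71.4 to 108 CPM came from Cox8b, which skeletal muscle also expresses.

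Set against the summed white adipocyte markers, a ratio computed after the values were seen, Fasn remained separate between the groups: 151 to 1323 CPM per 1000 marker CPM in the control mice and 39.8 to 67.7 in the HFD + RSV mice. Acaca was at 32.8 to 136 against 20.5 to 28.0 on this ratio, and Slc25a1 at 8.45 to 19.0 against 2.82 to 4.00. Thrsp overlapped (9.18 to 49.9 against 8.14 to 12.3), as did Scd1 (382 to 863 against 95.3 to 441). Control mouse 4 was the lowest control mouse in each of these ratios. Among the summed markers, Plin4 stood at 89.0 to 162 FPKM, a narrower range than that of Adipoq at 10.4 to 270 FPKM. Plin4 thus weighs more in the sum where the other markers are low, and ratios to single markers were not computed. Without control mouse 3, 6 of the 22 lipogenic genes were still called, among them Fasn, Elovl6, Thrsp, Slc25a1 and Acaca. Without HFD + RSV mouse 4, edgeR called none of the 22, and without HFD + RSV mice 1, 2 and 3 it called 3, 2 and 4; without control mice 1, 2 and 4 it called 13, 3 and 7. DESeq2 called 12 of the 22, beside 1284 of all 15097 tested genes. The median log2 fold change of the list was negative, between -1.51 and -0.90, whichever mouse was left out. The part of fat cells in the lipogenic difference was not tested.

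**Figure D2:**
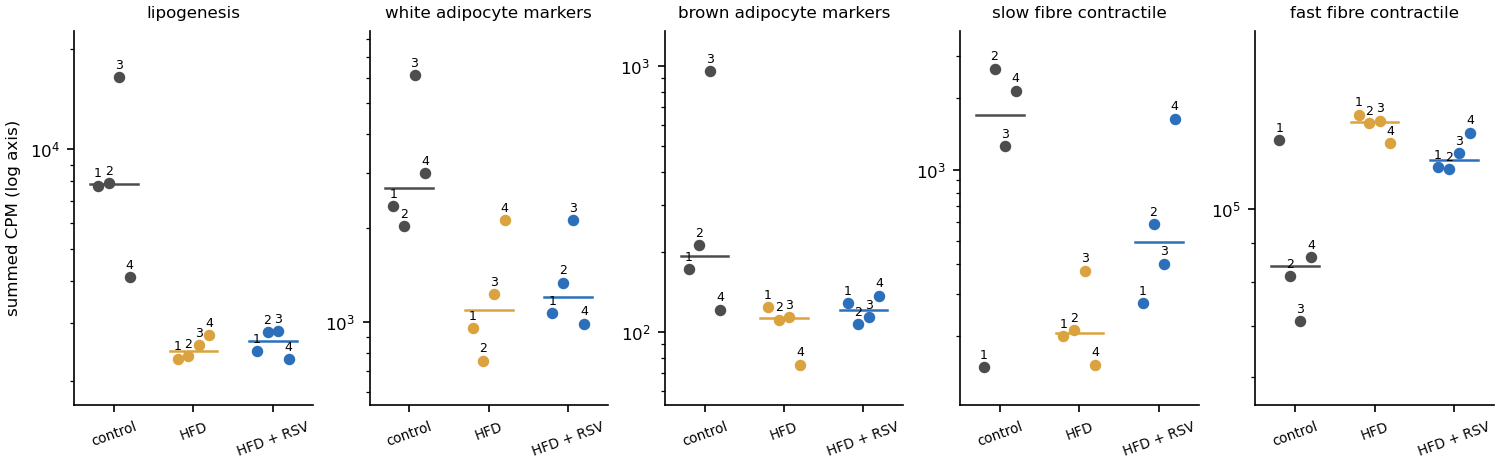
Summed CPM (log axis) of the lipogenesis, white adipocyte, brown adipocyte, slow fibre and fast fibre genes in each mouse, with replicate numbers beside the points and lines at group medians. The lipogenesis sums of the 4 HFD + RSV mice lay at 2336 to 2834 CPM, below all 4 control mice at 4127 to 16517 CPM, while control mouse 3 stood apart in the adipocyte panels and control mouse 1 in the fibre panels.

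The other genes with the largest falls came from carbohydrate metabolism and from genes of varied function. Tkt, transketolase of the pentose phosphate pathway, fell from 145, 147, 278 and 67.9 CPM in the control mice to 12.9 to 31.0 CPM (log2 fold change -2.98 ± 0.42, edgeR adjusted P = 0.0161). Pygl, the glycogen phosphorylase of liver, fell by 2.87 on the log2 scale, from 15.7 to 110 CPM down to 3.73 to 10.5 CPM. Mpzl2, a cell adhesion protein, stood at 7.91, 7.25, 18.3 and 5.49 CPM in the control mice and at 1.24, 1.85, 1.19 and 1.46 CPM in the HFD + RSV mice (log2 fold change -2.76 ± 0.34, edgeR adjusted P = 0.0107).

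The untreated HFD values of Mpzl2 were lower still, at 0.612 to 0.732 CPM. Kcnk3, an acid-sensitive potassium channel, fell from 13.5 to 89.2 CPM in the control mice to 0.666 to 5.23 CPM in the HFD + RSV mice. Aspg, an asparaginase (log2 fold change -4.81), and Poln, a DNA polymerase (-3.30), were low throughout the HFD + RSV group, at no more than 1.45 and 0.395 CPM. In Aspg the lowest control mouse and the highest HFD + RSV mouse were both at 1.45 CPM after rounding. In all 12 of these largest falls the groups did not overlap, as the rule for naming them required. Mpzl2, Fasn and Acaca were called in 10 or 11 of 13 alternatives, Slc25a1 and Tkt in 9, Elovl6 in 7, and the other 6, Kcnk3 at the low end, in 3 to 6.

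A few genes listed as targets of glucocorticoids fell too. Of 16 listed genes, 3 fell and none rose (median log2 fold change -0.70), beside 0.828% of all tested genes that fell. Cdkn1a, the cell cycle inhibitor p21, fell from 36.2, 58.1, 58.9 and 49.3 CPM to 19.2, 16.7, 22.7 and 25.2 CPM (log2 fold change -1.27 ± 0.16, edgeR adjusted P = 0.0107). Glul, glutamine synthetase, fell from 852, 818, 1537 and 577 CPM to 303, 200, 398 and 305 CPM (log2 fold change -1.65 ± 0.30, adjusted P = 0.0339 by edgeR). Sesn1, a stress-induced regulator of growth signalling, fell by 0.80 on the log2 scale. Other members, such as Fkbp5 (-1.22) and the ubiquitin ligase Trim63 (-1.01), did not pass the test, and the receptor gene Nr3c1 was at 0.00. Leaving out single mice left 1 to 6 of the 16 called: 6 without control mouse 1, 2 without HFD + RSV mouse 1, and 1 without control mouse 2 or 3 or HFD + RSV mouse 2 or 4.

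Genes that rose were led by Nmrk2, a muscle kinase that phosphorylates nicotinamide riboside on a route to NAD. It stood at 19.6, 10.8, 12.6 and 16.6 CPM in the control mice and at 51.8, 199, 69.8 and 57.4 CPM in the HFD + RSV mice (log2 fold change 2.67 ± 0.52, edgeR adjusted P = 0.0391). The groups did not overlap, as the naming rule required for all 12 largest rises. HFD + RSV mouse 2 was far above the other 3, and Nmrk2 was called in 3 of 13 alternatives, not without that mouse. Ky, a cytoskeletal protein needed to maintain muscle, rose from 125, 50.6, 62.6 and 83.4 CPM to 249, 394, 259 and 323 CPM (log2 fold change 1.93 ± 0.25, edgeR adjusted P = 0.0122). Ky was called in 11 of 13 alternatives, and the untreated HFD mice were at 298 to 371 CPM.

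Lrrc38, an auxiliary subunit of large-conductance potassium channels, rose from 11.5, 6.90, 7.90 and 6.27 CPM to 22.4, 27.1, 17.0 and 26.3 CPM (log2 fold change 1.52 ± 0.19, edgeR adjusted P = 0.0107). Gdap1, a protein of the outer mitochondrial membrane, rose from 9.86, 9.84, 7.94 and 2.90 CPM to 24.7, 32.2, 33.3 and 27.9 CPM (log2 fold change 1.94 ± 0.40), but was called in 3 of 13 alternatives and, with 1 mouse left out, only without control mouse 1. Cited4, a transcriptional coregulator, rose by 1.89 and Pdzd7, a scaffold protein of sensory hair cells, by 1.68 on the log2 scale. Among the smaller rises were the mitotic kinase Aurka (1.40) and the spindle protein Fam83d (1.29), Fam78a, the membrane protein Tmem26 (1.25) and Sec14l5 (1.23), of the lipid-binding SEC14 family. The untreated HFD mice had log2 fold changes against control of 1.16 to 2.45 in these genes other than Tmem26 (0.44) and Tyw3 (0.36). Of the 12 largest rises, Tyw3, an enzyme of transfer RNA modification, had the smallest adjusted P, and it is described with its overlapping lncRNA. Tyw3 was called in 12 of 13 alternatives, Lrrc38 in 11, Cited4 and Fam78a in 7, and Pdzd7, Aurka, Fam83d, Tmem26 and Sec14l5 in 3 to 6.

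**Figure D3:**
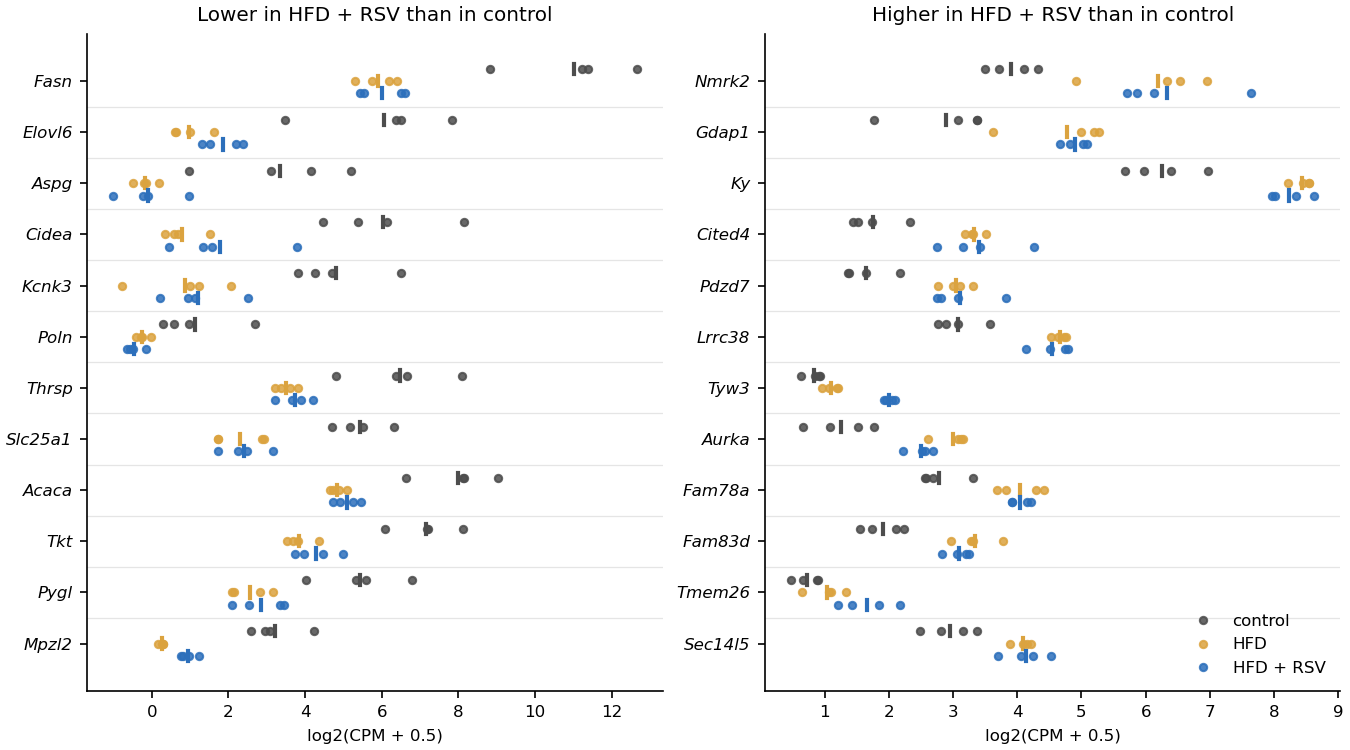
Expression as log2(CPM + 0.5) of the 12 largest falls and 12 largest rises in each control, HFD and HFD + RSV mouse (points, with group means as vertical bars). In each gene the 4 HFD + RSV mice sit on 1 side of the 4 control mice, as the rule for naming them required. In most genes the untreated HFD mice overlap the HFD + RSV mice, with Tyw3 among the exceptions.

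Of 18 tested genes of the neuromuscular junction, 2 rose and none fell (median log2 fold change 0.32), beside 0.702% of all tested genes that rose. Ache, the acetylcholinesterase of the synapse, rose from 16.1, 11.7, 9.53 and 13.3 CPM to 21.5, 26.5, 18.2 and 22.3 CPM (log2 fold change 0.81 ± 0.15, edgeR adjusted P = 0.0339). Rapsn, which clusters acetylcholine receptors, rose from 10.5 to 15.6 CPM up to 17.9 to 19.9 CPM (log2 fold change 0.56 ± 0.11). Both calls were lost without control mouse 2, without control mouse 3 and without HFD + RSV mouse 1, 2 or 4. Markers of Schwann cells, the glia of nerve, had no call among 17 tested, with sums of 96.0 to 295 CPM in the control and 65.0 to 525 CPM in the HFD + RSV mice.

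Single members of other lists passed the test, as did 1.53% of all tested genes. Prkag3, the AMPK subunit of fast muscle, rose by 1.12 (35.9 to 64.4 CPM against 62.8 to 136 CPM, with overlap). Igfbp5, an insulin-like growth factor binding protein, rose by 0.74 and Col15a1, a basement membrane collagen, by 0.81 on the log2 scale. Fdft1, squalene synthase, fell by 0.76 and was the 1 called gene of 25 tested in cholesterol synthesis. Nfe2l2, the antioxidant regulator NRF2, fell by 0.44, Pecam1, an endothelial adhesion molecule, by 0.42, and Cox6a1, the non-muscle form of a cytochrome oxidase subunit, by 2.19. These 7 genes were called in 2 (Nfe2l2) to 7 (Col15a1) of 13 alternatives, and all 7 calls were lost without control mouse 2 or 3 and without HFD + RSV mouse 2 or 4. Without control mouse 4, Col15a1 and Fdft1 were called, without HFD + RSV mouse 1, Col15a1 and Prkag3, and without HFD + RSV mouse 3, Col15a1 alone. The 16 endothelial markers had a median of -0.06. Antigen presentation (14 genes, median -0.30), interferon-stimulated genes (20, -0.14), macrophage markers (12, -0.25), heat shock genes (18, -0.06) and circadian clock genes (19, 0.28) held no call by edgeR, nor did the 37 subunits of respiratory complex I (0.09), the 81 ribosomal proteins (0.02) and the 37 proteasome subunits (0.00).

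Contractile and glycolytic genes gave no call, and control mouse 1 differed from its group in them. Of 14 fast fibre genes, 12 had a positive log2 fold change (median 0.45). Of these, 9 had an unadjusted P below 0.05, beside 9.66% of all tested genes higher at that limit. None of the 14 passed the adjusted test in edgeR, while DESeq2 called 5, beside 1284 of all 15097 tested genes. Myh4, the fastest myosin heavy chain, was at 53725 CPM in control mouse 1 and at 27140 to 29106 CPM in the other 3 control mice, against 44511 to 53230 CPM in the HFD + RSV mice. Myh7, the slow myosin heavy chain, stood at 2.79 CPM in control mouse 1 and at 910, 453 and 521 CPM in the other 3. In the HFD + RSV mice it stood at 7.01, 187, 39.0 and 528 CPM, so both groups spanned low and high values. All 12 slow fibre genes had a negative log2 fold change (median -0.97) and none an unadjusted P below 0.05, nor did DESeq2 call any.

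Without control mouse 1, 1139 genes were called in place of 231, with all 231 among them. Of 29 glycolysis and glycogen genes, 21 had a positive log2 fold change (median 0.25). Of these, 11 had an unadjusted P below 0.05, beside 9.66% of all tested genes higher at that limit. None of the 29 was called by edgeR and 7 by DESeq2. Summed glycolytic expression was 37071 CPM in control mouse 1 and 24958 to 27084 CPM in the other control mice, against 31145 to 40185 CPM in the HFD + RSV mice. The part of fibre composition in these differences was not tested. Of 36 fatty acid oxidation genes, 33 had a negative log2 fold change (median -0.39). Of these, 6 had an unadjusted P below 0.05, beside 10.9% of all tested genes lower at that limit. None of the 36 was called by edgeR and 4 by DESeq2. Over all 15097 tested genes, DESeq2 called 1284.

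No gene of insulin signalling was called by edgeR among the 27 tested (median -0.05). An unadjusted P below 0.05 was found in 9 of them, beside 20.6% of all tested genes. DESeq2 called 2 of the 27, beside 1284 of all 15097 tested genes. Insr, the insulin receptor, stood at 176 to 197 CPM in the control and 137 to 178 CPM in the HFD + RSV mice (log2 fold change -0.22 ± 0.09, adjusted P = 0.196). Irs1, its first substrate, was at 52.6 to 70.7 CPM against 63.3 to 118 CPM (0.48 ± 0.18, adjusted P = 0.153). Akt1, Akt2 and Gsk3b, kinases downstream of the receptor, had log2 fold changes of -0.11, -0.04 and 0.04, and Slc2a4, which encodes GLUT4, of -0.04 ± 0.09.

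Socs1, a feedback inhibitor of cytokine and insulin signalling, was low in both groups, at 0.669, 0.703, 0.426 and 0.363 CPM in the control mice and 0.532, 0.860, 0.571 and 0.444 CPM in the HFD + RSV mice. The values overlapped (log2 fold change 0.15 ± 0.54, adjusted P = 0.915), and the untreated HFD mice were at 1.29 to 6.54 CPM, above all 8. Sirt1, the deacetylase often linked to resveratrol, was at 9.58 to 12.3 CPM against 8.60 to 10.7 CPM (-0.23 ± 0.11, adjusted P = 0.266). Ppargc1a, the mitochondrial coactivator PGC-1alpha, was at -0.02 ± 0.23, and Cav3, muscle caveolin, at 0.33 ± 0.14 (adjusted P = 0.205).

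In the lncRNA table, 65 of 16503 tested transcripts (0.394%) differed, of which 56 were higher (0.339%) and 9 lower (0.0545%) in the HFD + RSV group. None of the 65 overlapped between the groups, beside 7.4% of all tested lncRNAs without overlap. CPM here are scaled to the total of the lncRNA table. By the reference annotation, 31 of the 65 overlapped a protein-coding gene. The share of all tested lncRNAs that do so is not given here, so this count has no background to compare with. Fits of the 8 or of all 16 mice called 1 and 2 lncRNAs, DESeq2 called 292, and 555 (3.36%) had an unadjusted P below 0.05 with a log2 change above 1. Without control mouse 3, edgeR called none, with 1583 at an unadjusted P below 0.05, and without control mouse 2 it called 1.

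The largest share of the calls came from a single region beside Maf, a basic leucine zipper transcription factor (chr8:115682942-115707794, minus strand). The region was chosen after its values were seen and is described without a test. It runs from its first to its last called lncRNA, so counts within it do not test it against all lncRNAs. Between chr8:115510784 and chr8:115704953 lay 24 of the 65 called lncRNAs (36.9%), nearly all beyond the 3′ end of Maf. Of 44 tested lncRNAs there, all 44 were higher in the HFD + RSV group and 43 had an unadjusted P below 0.05 (7.09% of all tested lncRNAs were higher at that limit), with log2 fold changes of 0.46 to 1.43 (median 1.02). These transcripts share a region and are not independent of each other.

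Their summed level was 2470, 1839, 2063 and 1734 CPM in the control mice and 3634, 4519, 4069 and 3263 CPM in the HFD + RSV mice, with no overlap. The largest change was in NONMMUT131712.1 (chr8:115545364-115546200), at 7.31, 10.7, 8.42 and 5.14 CPM in the control mice and 21.9, 17.5, 27.4 and 19.5 CPM in the HFD + RSV mice. Maf itself rose from 145, 93.1, 115 and 101 CPM in the gene table to 194, 243, 180 and 189 CPM (log2 fold change 0.83 ± 0.14, edgeR adjusted P = 0.0295; called in 5 of 13 alternatives). The untreated HFD mice were at 176 to 222 CPM for Maf and at 3144 to 4067 CPM for the summed lncRNAs, so the untreated and the resveratrol mice overlapped in both.

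**Figure D4:**
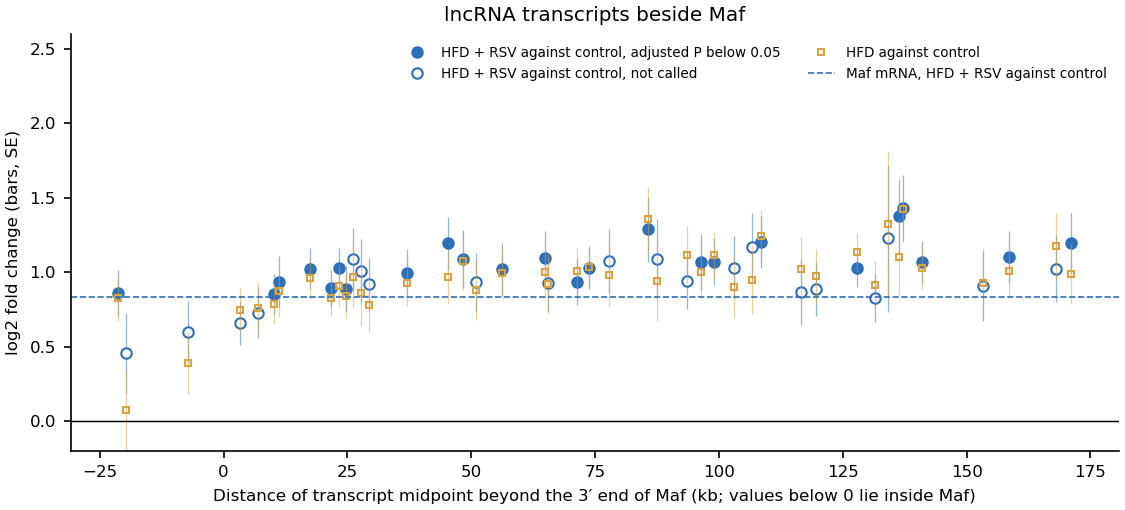
Log2 fold change against control (points, with SE bars) of the 44 tested lncRNAs beside Maf by distance of the transcript midpoint from the 3′ end of the gene in kb, for HFD + RSV (circles, filled where the adjusted P was below 0.05) and HFD (squares). All HFD + RSV values lay above 0, between 0.46 and 1.43, along 171 kb, and the dashed line marks Maf mRNA at 0.83.

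A smaller set lay at Jph1, which encodes junctophilin of the muscle triad (chr1:16964560-17097889, minus strand). Of 11 tested lncRNAs within and beside it, all 11 were higher, with log2 fold changes of 0.28 to 1.60 (median 1.31). Of these, 5 were called (1.25 to 1.60), beside 0.339% of all tested lncRNAs that were called higher. The median log2 fold change of the 11 in untreated HFD against control was 1.58. NONMMUT075079.1 (chr1:17120709-17122068), between Jph1 and Gdap1, rose from 19.4, 8.83, 14.0 and 11.7 CPM to 40.7, 55.5, 31.5 and 35.1 CPM (log2 fold change 1.60 ± 0.26, edgeR adjusted P = 0.0368). The groups did not overlap. Jph1 itself stood at 324 to 601 CPM in the control and 535 to 622 CPM in the HFD + RSV mice (0.42 ± 0.16, adjusted P = 0.165), while its neighbour Gdap1 rose, as given with the genes. This set was also chosen after its values were seen, and it too runs from its first to its last called lncRNA.

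Of the other lncRNAs with the largest rises, MSTRG.3472.1, assembled from the study's reads and overlapping exons of Sobp (chr10:42996707-43016438), rose from 30, 31, 29 and 30 counts to 68, 159, 203 and 84 counts (log2 fold change 2.13 ± 0.38). Sobp, a nuclear protein, rose by 0.88 in the gene table. NONMMUT153330.1, 411 bases from the tropomyosin gene Tpm1, rose by 1.67, NONMMUT057952.2, within Aldh1l1, by 1.67, and NONMMUT126618.1, 10198 bases from Kctd15, by 1.61 on the log2 scale. NONMMUT115214.1, in an intron of Adamtsl1, had 2 to 3 counts in each control mouse and 8 to 9 in each HFD + RSV mouse. Among those that fell, NONMMUT026339.2, in an intron of Osbpl11, fell by 1.39 and NONMMUT022029.2, within Tbc1d4, a GTPase regulator of GLUT4 traffic, by 1.22, with Tbc1d4 mRNA at -0.15.

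The 3 lncRNAs with the largest falls each overlapped exons of a coding gene. Neither their strand nor that of the libraries is given in the sources used here, so whether reads were divided between the overlapping transcripts is not known. NONMMUT045865.2 (chr3:154576526-154579157) lies whole within exonic sequence of Tyw3 (chr3:154576431-154597104, minus strand). It had 26, 56, 31 and 33 counts in the control mice and 4, 3, 11 and 5 in the HFD + RSV mice (log2 fold change -2.53 ± 0.34, edgeR adjusted P = 0.0233). Tyw3 mRNA had 25, 41, 27 and 27 counts in the control mice and 85, 85, 77 and 74 in the HFD + RSV mice (1.45 ± 0.15, edgeR adjusted P = 0.00683). The lncRNA and the mRNA thus moved in opposite directions, without overlap between the groups in either.

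The lncRNA held 51.0 to 57.7% of their joint counts in the control mice and 3.41 to 12.5% in the HFD + RSV mice. In the untreated HFD mice the share was 41.8 to 60.6% and in the HFD + metformin mice 49.5 to 59.6%, both apart from the HFD + RSV mice. The sum of both, in CPM of all counts, was 2.25 to 2.86 in the control and 2.88 to 3.44 in the HFD + RSV mice, adjoining ranges. Tyw3 was the 1 gene called when all 16 mice were fitted, and NONMMUT045865.2 was called in 11 of 14 alternatives.

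**Figure D5:**
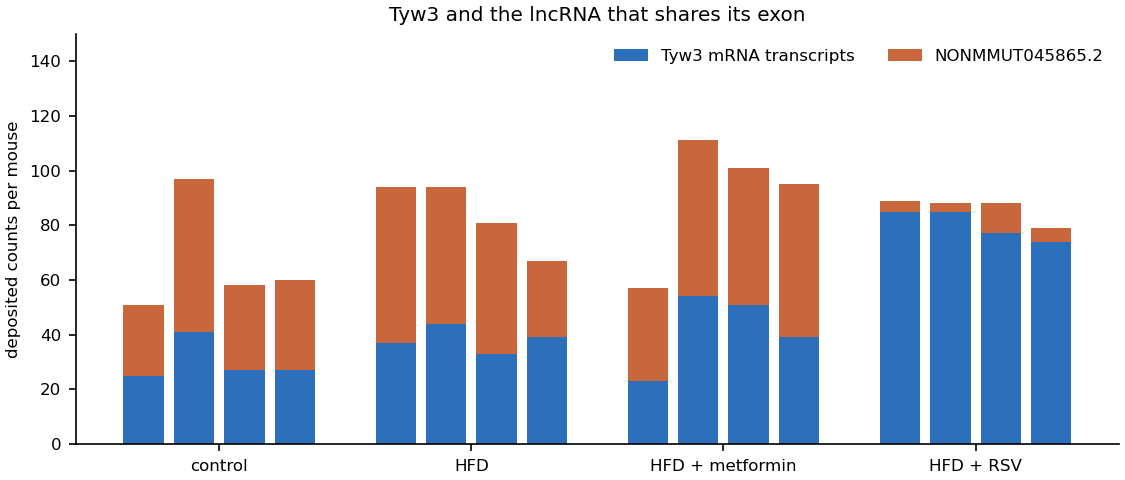
Deposited counts of Tyw3 mRNA (lower bars) and of the exon-overlapping lncRNA NONMMUT045865.2 (stacked above) in each of the 16 mice by group. The lncRNA made up 3.41 to 12.5% of the joint counts in the 4 HFD + RSV mice and at least 41.8% in the other 12.

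NONMMUT051063.2 (chr4:156203263-156206508) shares exonic sequence with AW011738. It had 32, 39, 28 and 37 counts in the control mice and 0, 0, 1 and 0 in the HFD + RSV mice, a ratio of 140 per total count (95% exact interval 24.8 to 5583, for counting error only; edgeR adjusted P = 0.0469). AW011738 mRNA was at 0.415 to 2.12 CPM in the control and 0.176 to 3.82 CPM in the HFD + RSV mice and did not pass the test. NONMMUT002204.2 (chr1:105280271-105283472), within an exon of Rnf152, a lysosomal ubiquitin ligase, fell from 50, 136, 338 and 40 counts to 6, 5, 7 and 5 counts (log2 fold change -4.40 ± 0.76). Its share of the joint counts with Rnf152 was 48.8 to 68.3% in the control and 7.04 to 13.9% in the HFD + RSV mice. In the untreated HFD mice these shares ranged widely, from 1.15 to 77.0% at AW011738 and from 6.35 to 59.3% at Rnf152. Whether any shared reads bear on these 3 differences was not tested.

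NONMMUT044897.2 (chr3:116419709-116423941), the lncRNA of the study's question, overlaps Cdc14a, a phosphatase gene. It stood at 46.4, 49.1, 56.9 and 43.5 CPM in the control mice and at 50.0, 61.6, 43.8 and 34.5 CPM in the HFD + RSV mice. The groups overlapped (log2 fold change -0.05 ± 0.23, adjusted P = 0.969), and its log2 fold change was 1.50 in HFD against control and -1.55 in HFD + RSV against HFD.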

How the data were processed

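Ribosomal RNA-depleted RNA of 16 muscle samples was sequenced, and the submitters' processing notes name fastp, HISAT2 and GRCm38. The authors deposited estimated counts per transcript from StringTie, which are whole numbers, and FPKM values beside them, for 82388 mRNA and 58245 lncRNA transcripts; strandedness is not given in the sources used here. mRNA counts were summed to 23235 gene names, and 4 transcripts split over 2 lines were joined. Of the mRNA transcripts, 97.4% had the coordinates of GENCODE M21. edgeR 4.0.16 in R 4.3.3 fitted the control, HFD and HFD + RSV mice together with TMM scaling per table (filterByExpr, minimum count 10 and total 15; robust quasi-likelihood; Benjamini-Hochberg over all features of a table; threshold 0.05). SE was the log2 fold change divided by the square root of F. CPM are TMM-scaled, and deposited FPKM served to compare levels between genes. P-values set the difference between groups against the spread between mice, which was estimated from all mice of the fit, the untreated HFD mice included.

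Named genes were, per direction, the 12 with the largest change among those called with a log2 change above 1, no overlap and a mean of at least 2 CPM (73 met this; 2 clone names were left out), up to 4 called members per list, and genes of the study's question; for lncRNAs, 6 per direction. Ucp1, Elovl3, Scd1, Adipoq, Fabp4, Maf, Jph1, Myh4, Myh7, AW011738 and further list members were named after their values were seen. The comparison, lists and rule were chosen with earlier results of these data known. The list genes and their counts carry no test of their own. On simulated counts with a log2 change of 2, the fit recovered 88.5% of changed genes and 68.0% of changed lncRNAs in this comparison. The simulated counts were drawn independently for each gene, without shifts that genes share within a mouse, so these shares describe a simpler setting than the data. DESeq2 1.42.0, other scalings, filters and samples were alternatives. Metformin mice were used for the shares at overlapping transcripts and the fit of 16 mice.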

Additional observations from a re-analysis of the deposited data

Results flagged for a closer look

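In 8 of 80 groups of 4 mice checked, 1 mouse lay far from the other 3. The nominal rate of about 1 in 20 groups assumes independent groups. These groups share mice and mostly hold genes chosen by the naming rule, so the count cannot be compared with that rate. Control mouse 3 was far above its group in Kcnk3, at 89.2 CPM against 13.5 to 25.3, in Poln, at 5.97 CPM against 0.725 to 1.47, and in the summed brown adipocyte markers, at 958 CPM against 122 to 212. It was far below its group in NONMMUT126618.1, at 2.04 CPM against 3.08 to 3.29. Control mouse 1 was high in Fam78a, at 9.42 CPM against 5.40 to 5.96.

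HFD + RSV mouse 2 was far above its group in Nmrk2, at 199 CPM against 51.8 to 69.8. HFD + RSV mouse 3 was high in Cidea, at 13.2 CPM against 0.860 to 2.49. It also held the single count of NONMMUT051063.2 in its group, 0.298 CPM against 0, and that flag rests on this count alone.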

How the results depend on the processing

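No paired analysis was possible because only 1 complete mouse code occurs in both groups and the labels give these codes no meaning. In place of 231 genes, DESeq2 called 1284, edgeR without a filter on low counts 142, the fit of 8 mice 1 (Gm44870, named after its value was seen), the fit of 16 mice 1 (Tyw3) and single mRNA transcripts 7. An unadjusted P below 0.05 with a log2 change above 1 gave 458 genes (87 higher), and the adjusted P with that limit 88 (27 higher). Leaving out single mice gave 15 to 1139 genes, the extremes without HFD + RSV mouse 4 and without control mouse 1; the others gave 69, 22 and 68 without HFD + RSV mice 1, 2 and 3 and 20, 43 and 92 without control mice 2, 3 and 4. In place of 65 lncRNAs, DESeq2 called 292, no filter 109, 17 with the library sizes of the gene table, the fit of 8 mice 1 (NONMMUT051063.2), the fit of 16 mice 2 (NONMMUT045865.2 and NONMMUT110382.1), and an unadjusted P with a log2 change above 1 gave 555. Leaving out single mice gave 0 to 185 lncRNAs, the extremes without control mouse 3 and without control mouse 1; the others gave 1 and 13 without control mice 2 and 4 and 36, 17, 3 and 35 without HFD + RSV mice 1 to 4. The cause was not tested. The 24 genes and 12 lncRNAs named for the largest changes kept their direction in every alternative that tested them. NONMMUT044897.2, with a change near 0, ranged from -0.19 to 0.09 on the log2 scale. Of the 24 genes, 4 were called without HFD + RSV mouse 4 (Mpzl2, Ky, Lrrc38 and Tyw3) and none in the fit of 8 mice. Of the 12 lncRNAs, DESeq2 called 11, as did edgeR without control mouse 1, but none was called without control mouse 2 or 3. Leaving out HFD + RSV mouse 2 or 3 left 1 called, as did the fits of 8 and of 16 mice. Library sizes of the gene table left 3 called. NONMMUT045865.2 was called in 11 of 14 alternatives, and the others in 2 of 12 (NONMMUT115214.1) to 7 of 14 (NONMMUT022029.2 and NONMMUT126618.1). DESeq2 size factors in edgeR gave the same totals, 231 and 65, of which 226 genes and all 65 lncRNAs were shared with the main fit. Counting error bears most on lncRNAs with few counts.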
